A study of Mus musculus with 10 samples.

Results

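The cell surface Toll-like receptors and their co-receptors are the proteins with which antigen-presenting cells sense bacterial lipoproteins, lipopolysaccharide and flagellin outside the cell. The group was chosen by name and not by its values, but earlier results of these data were known at the time. It consists of Tlr1, Tlr2, Tlr4, Tlr5, Tlr6, Cd14, Ly96 and Cd180, which are 8 of the 22607 genes that the transcripts of the study map to. Poly(A) RNA of sorted cells was sequenced in 5 groups of 2 libraries, all from wild-type mice of the C57BL/6 strain, 8 weeks old. A set of 4 libraries compared colonic with splenic MHCII+ cells, and the other 6 libraries were of colonic CD11b+CD11c+, CD11b+ and CD11c+ cells. The tissue of each group was read from abbreviated titles together with the series design, and no group carried a transgene, a mutation or a treatment.

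TLR2 works as a pair: with TLR1 it binds triacylated lipopeptides and with TLR6 diacylated ones. TLR4 signals for lipopolysaccharide only together with MD-2, the product of Ly96, and CD14 hands lipopolysaccharide to that complex and lipopeptides to TLR2. TLR5 recognises flagellin, and CD180, also called RP105, is a TLR4 relative without a signalling domain that pairs with MD-1, the product of Ly86, and is best known from B cells. In the gut wall, macrophages and dendritic cells meet the ligands of all these receptors at close range.

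On mm10, in GENCODE release M21, these protein-coding genes lie on chromosome 1 (Tlr5 ENSMUSG00000079164.8, chr1:182954788-182976044, and Ly96 ENSMUSG00000025779.10, chr1:16688051-16709611), chromosome 3 (Tlr2 ENSMUSG00000027995.10, chr3:83836272-83841767), chromosome 4 (Tlr4 ENSMUSG00000039005.13, chr4:66827584-66930284), chromosome 13 (Cd180 ENSMUSG00000021624.9, chr13:102693558-102739629) and chromosome 5. Tlr1 and Tlr6 are neighbours on the last of these, both on the minus strand (Tlr1 ENSMUSG00000044827.10, chr5:64924679-64933563; Tlr6 ENSMUSG00000051498.6, chr5:64952031-64960097; mm10). Their coding sequences of 2388 and 2421 bases were 73.3% identical when aligned, against 50.9% for Tlr1 and Tlr2 and 51.1% for Tlr6 and Tlr2. The longest stretch that Tlr1 and Tlr6 had in common was 229 bases, covering coding bases 1468 to 1696 of Tlr1 and 1507 to 1735 of Tlr6. It is shown with the bases that flank it because reads that fall wholly inside it fit both genes. Capitals mark the shared stretch, written 5′ to 3′ on the coding strand from GENCODE release M21, at chr5:64925527-64925775 for Tlr1 and chr5:64953818-64954066 for Tlr6.
Tlr1: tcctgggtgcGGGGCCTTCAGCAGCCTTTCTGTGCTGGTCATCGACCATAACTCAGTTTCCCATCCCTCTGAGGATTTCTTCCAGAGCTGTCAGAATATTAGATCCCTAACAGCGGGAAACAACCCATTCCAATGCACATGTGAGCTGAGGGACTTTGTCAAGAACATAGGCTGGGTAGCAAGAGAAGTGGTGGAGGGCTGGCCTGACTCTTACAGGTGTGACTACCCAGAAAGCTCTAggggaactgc
Tlr6: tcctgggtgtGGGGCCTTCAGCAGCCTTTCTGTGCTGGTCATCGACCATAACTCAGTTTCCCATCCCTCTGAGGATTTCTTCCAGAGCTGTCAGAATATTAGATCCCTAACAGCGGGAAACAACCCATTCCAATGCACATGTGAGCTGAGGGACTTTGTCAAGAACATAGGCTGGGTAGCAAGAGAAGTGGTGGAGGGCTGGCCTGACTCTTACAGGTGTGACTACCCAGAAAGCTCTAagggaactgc
Of the 2358 stretches of 31 bases in the Tlr1 coding sequence, 603 (25.6%) also occurred in Tlr6, and these made up 25.2% of the Tlr6 stretches. Tlr1 and Tlr2 shared none. The counts of Tlr1 and Tlr6 are therefore partly an assignment by the quantifier, and their levels are less certain than those of Tlr2.

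The promoters of 5 of the 8 genes were in the RefSeq table used here (GRCm38.p6, 250 bases before to 50 after the start) and lay where a sequence can be printed. Those of Tlr1, Tlr2 and Cd180 are given 5′ to 3′ on the gene's strand because, of these 5, they differed most between colonic and splenic MHCII+ cells, Tlr2 higher and the others lower in the colon. The windows are chr5:64933509-64933808 (minus strand) for Tlr1, chr3:83841559-83841858 (minus strand) for Tlr2 and chr13:102693297-102693596 (plus strand) for Cd180. Capitals mark matches, on either strand, to AGGAAGT, the core bound by PU.1 and other ETS factors, or to GGGA followed after any 4 bases by CC, an NF-kB motif.
Tlr1: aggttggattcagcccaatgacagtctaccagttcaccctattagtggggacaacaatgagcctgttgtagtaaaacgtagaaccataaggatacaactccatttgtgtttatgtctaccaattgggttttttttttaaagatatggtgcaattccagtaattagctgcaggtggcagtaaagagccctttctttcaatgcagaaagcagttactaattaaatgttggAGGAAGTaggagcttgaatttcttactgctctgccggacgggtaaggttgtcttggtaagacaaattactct
Tlr2: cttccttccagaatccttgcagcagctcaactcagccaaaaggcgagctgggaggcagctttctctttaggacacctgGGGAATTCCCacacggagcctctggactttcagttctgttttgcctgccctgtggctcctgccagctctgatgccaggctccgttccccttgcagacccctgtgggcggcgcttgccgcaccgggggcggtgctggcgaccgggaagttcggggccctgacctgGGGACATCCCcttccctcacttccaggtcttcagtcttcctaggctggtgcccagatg
Cd180: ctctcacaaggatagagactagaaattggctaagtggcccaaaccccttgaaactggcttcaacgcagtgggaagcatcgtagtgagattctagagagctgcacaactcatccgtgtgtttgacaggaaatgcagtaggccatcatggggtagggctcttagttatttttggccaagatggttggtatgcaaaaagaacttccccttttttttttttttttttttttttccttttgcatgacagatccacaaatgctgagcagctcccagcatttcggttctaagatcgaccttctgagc
The Tlr2 window held 2 matches to the NF-kB motif, the Tlr1 window held 1 match to AGGAAGT, and the Cd180 window held neither. TGANTCA (AP-1), GAAA followed after any 2 bases by GAAA (interferon response) and TTGCNNAA (C/EBP) were searched as well and had no match in these windows. Over all 32851 promoters of that length, 20.7% held the NF-kB motif, so matches to it are common. AGGAAGT was in 9.35%, TTGCNNAA in 10.8%, TGANTCA in 7.81% and the interferon response motif, the rarest, in 3.44%. Whether any match is bound was not tested. The Tlr5 window held 1 match to the NF-kB motif, and the first Tlr6 window held 1 to AGGAAGT, 2 to the interferon response motif and 1 to TTGCNNAA. Tlr1, Tlr6 and Cd180 have 2 listed starts each, and the first listed is shown.

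Estimated counts totalled between 12806139 and 41769042 per library. CPM denotes a gene's counts over the TMM-scaled total of its library. Within groups, log2 CPM taken over the unscaled total instead correlated over genes at 0.991 to 0.996. Itgam, which encodes CD11b, was at 694 to 793 CPM in CD11b+CD11c+ libraries, 742 to 743 CPM in CD11b+ libraries and 25.9 to 40.5 CPM in CD11c+ libraries. Itgax, which encodes CD11c, did not separate the sorted subsets as sharply: it was at 679 and 772 CPM in CD11b+CD11c+ libraries, 491 and 557 CPM in CD11b+ libraries and 784 and 946 CPM in CD11c+ libraries. Markers of other cells were present: 6 plasma cell genes summed to between 9871 and 39349 CPM in every colonic library, and 8 epithelial genes to 5036 and 5087 CPM in colonic MHCII+ libraries. In such bulk samples, fewer cells of a type and less RNA per cell cannot be told apart. Whether a group's libraries are of different mice is not stated in the labels. Each p-value therefore reflects only how far these libraries spread, and that spread may be technical.

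Levels of different genes were compared as TPM, a relative abundance scaled for transcript length. Only coding transcripts of at least 0.9 of the gene's longest coding length were summed. This matters for Cd180 and Tlr6: the 4 short Cd180 transcripts took 2.46 to 8.96% of the gene's counts in a library but 31.9 to 73.7% of its TPM, and the short Tlr6 transcript took 2.48 to 12.7% of the counts but 28.9 to 67.3% of the TPM. The MHCII+ set and the subset set carry separate runs of library numbers in the titles, so a difference of level between the sets and a difference between their preparations cannot be told apart.

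Cd14 was the most abundant of the 8 transcripts in every group other than splenic MHCII+ cells, where it ranked below Cd180, Tlr1 and Tlr2. Its mean TPM was 751 in CD11b+, 653 in CD11b+CD11c+, 359 in colonic MHCII+, 91.4 in CD11c+ and 14.3 in splenic MHCII+ cells, and only the libraries of CD11b+ and CD11b+CD11c+ cells overlapped. Tlr2 came next in the colonic groups other than CD11c+ cells, with a mean of 132 TPM in CD11b+CD11c+, 112 in CD11b+, 55.7 in colonic MHCII+, 22.4 in splenic MHCII+ and 7.17 in CD11c+ cells. In CD11c+ cells the mean of Cd180 stood above it, at 11.5 TPM.

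Tlr1 had its highest level in splenic MHCII+ cells, at 31.1 TPM, above 15.2 in CD11b+, 12.2 in CD11b+CD11c+, 5.57 in colonic MHCII+ and 2.08 in CD11c+ cells. Cd180 likewise led in splenic MHCII+ cells, at 65.3 TPM, before 23.0 in CD11b+CD11c+, 16.6 in CD11b+, 11.5 in CD11c+ and 8.24 in colonic MHCII+ cells. For Cd180 no neighbouring groups overlapped, and for Tlr1 only CD11b+ and CD11b+CD11c+ cells did. These were the receptors of the group that were highest in the spleen.

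Tlr4, Tlr5 and Tlr6 were low throughout, with no library above 7.71 TPM. Tlr4 averaged 7.70 TPM in CD11b+, 6.92 in CD11b+CD11c+, 5.06 in colonic MHCII+, 3.91 in splenic MHCII+ and 0.944 in CD11c+ cells. Tlr5 averaged 6.45 TPM in CD11b+CD11c+, 6.02 in CD11b+, 5.73 in splenic MHCII+, 2.63 in colonic MHCII+ and 0.632 in CD11c+ cells, and its 3 highest groups overlapped in turn. Tlr6 averaged 6.39 TPM in CD11b+, 5.69 in CD11b+CD11c+, 4.58 in splenic MHCII+, 3.36 in colonic MHCII+ and 0.922 in CD11c+ cells, with the same kind of overlap among its 3 highest groups. Ly96 averaged 19.0 TPM in CD11b+CD11c+, 15.7 in CD11b+, 9.75 in colonic MHCII+, 7.19 in splenic MHCII+ and 3.17 in CD11c+ cells. CD11c+ cells were the lowest of the 5 groups for 6 of the 8 genes, the exceptions being Cd14 and Cd180.

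**Figure D1:**
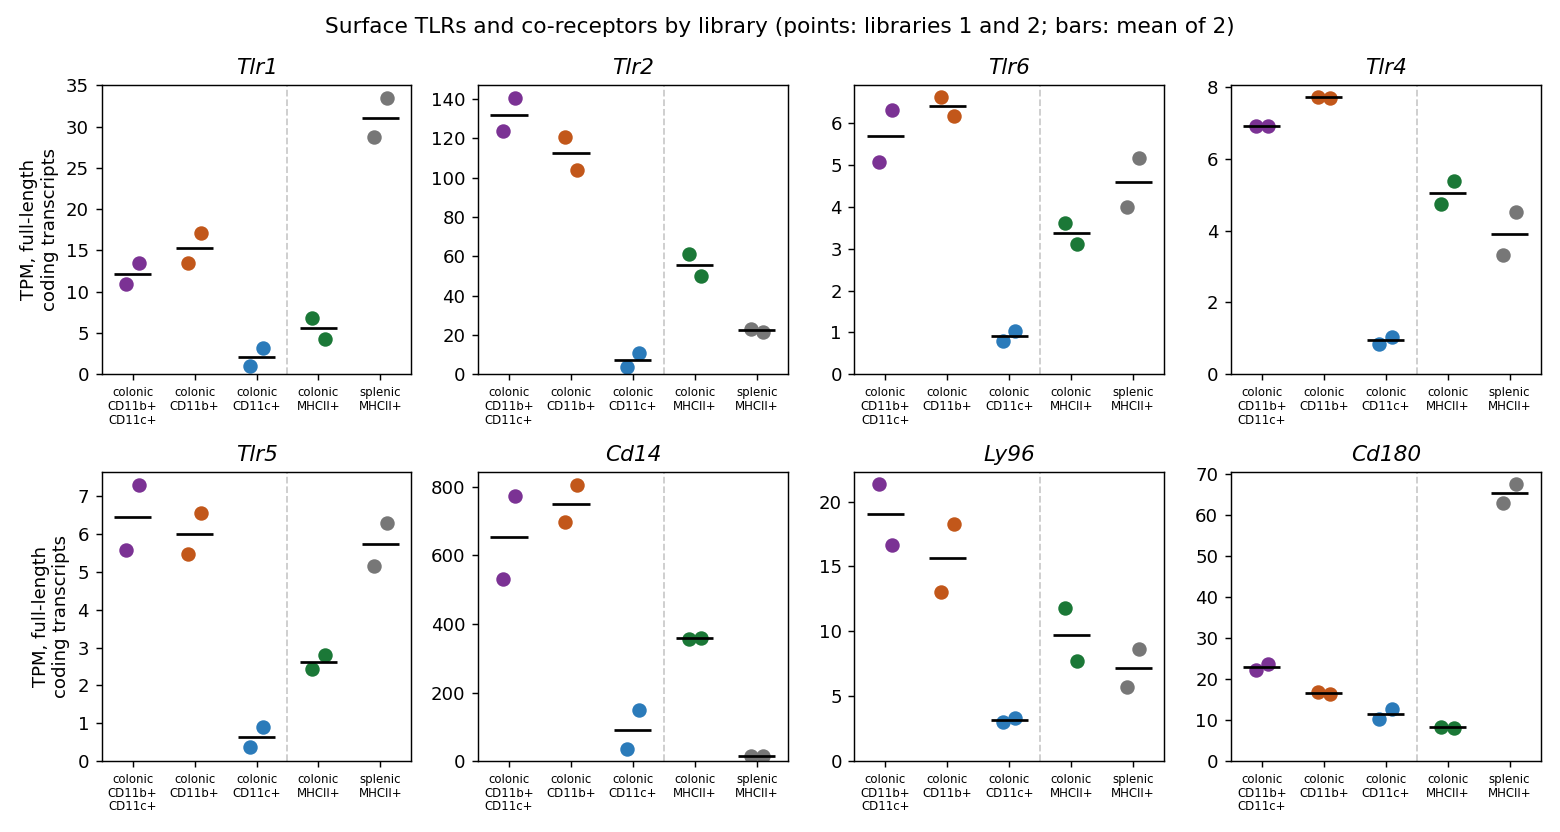
TPM of full-length coding transcripts (vertical axis, linear, from 0) of each of the 8 genes in the 5 sorted groups. Points are the 2 libraries of a group and bars their mean, and the dashed line parts the subset set from the MHCII+ set. Tlr1 and Cd180 peak in splenic MHCII+ cells at 31.1 and 65.3 TPM, and CD11c+ cells lie lowest for every gene but Cd14 and Cd180.

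The first comparison asked how the receptors of colonic MHCII+ cells differ from those of splenic MHCII+ cells. Cd14, Tlr2 and Tlr4 were higher in the colon, Tlr1, Tlr5 and Cd180 were lower, and Tlr6 and Ly96 did not pass the test. That made 6 of 8 called, where 60.3% of the 15076 genes tested were called (31.6% higher and 28.7% lower), so the count itself is close to that of all genes. The median log2 fold change of the 8 was 0.13, against 0.02 over all genes tested.

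Tlr2, the shared chain of the lipopeptide receptors, was at 275 and 224 CPM in colonic MHCII+ libraries, against 96.7 and 83.3 CPM in splenic MHCII+ libraries. Both colonic values lay above both splenic ones, and the log2 fold change was 1.47 (SE 0.14, edgeR adjusted p = 1.78e-04). Its partner Tlr1 went the other way: it was at 30.98 and 19.7 CPM in colonic MHCII+ libraries, against 121 and 132 CPM in splenic ones. Tlr1 was thus 4.95-fold lower in the colon (log2 fold change -2.31, SE 0.21, edgeR adjusted p = 1.55e-04). Tlr6, the other partner of Tlr2, was at 17.6 and 16.4 CPM in colonic MHCII+ libraries, against 18.3 and 23.2 CPM in splenic ones. The libraries did not overlap, but the log2 fold change of -0.29 had a 95% interval of -0.71 to 0.14 (edgeR adjusted p = 0.200).

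The opposite moves of Tlr2 and Tlr1 show in the ratio of their TPM within each library. Tlr2 was 9.01 and 11.5 times Tlr1 in colonic MHCII+ libraries, but 0.811 and 0.641 times in splenic ones. Tlr2 over Tlr6 was 17.0 and 16.1 in colonic MHCII+ libraries and 5.82 and 4.15 in splenic ones. By transcript level, then, Tlr1 exceeded Tlr2 in splenic MHCII+ libraries alone among the 5 groups, and Tlr2 exceeded Tlr6 in all 10 libraries.

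Among the lipopolysaccharide receptor genes, Cd14 was at 658 and 677 CPM in colonic MHCII+ libraries, against 24.5 and 22.9 CPM in splenic ones. It was 28.1-fold higher in the colon (log2 fold change 4.81, SE 0.11, edgeR adjusted p = 2.11e-06). Tlr4, the signalling chain, was at 23.2 and 25.8 CPM in colonic MHCII+ libraries, against 14.8 and 18.8 CPM in splenic ones. The libraries did not overlap and the log2 fold change was 0.54 (SE 0.17, edgeR adjusted p = 0.0335). That call was lost without colonic library 2 (0.46, adjusted p = 0.0871), without splenic library 1 (0.37, adjusted p = 0.204), and when limma was run on log2(TPM + 1) (0.41, adjusted p = 0.126). Ly96 was at 6.60 and 4.67 CPM in colonic MHCII+ libraries, against 3.36 and 4.41 CPM in splenic ones, with a log2 fold change of 0.54 and a 95% interval of -0.25 to 1.34 (edgeR adjusted p = 0.197).

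The 95% intervals of the log2 fold changes of Cd14 (4.55 to 5.08) and Tlr4 (0.12 to 0.96) did not meet. The TPM of Cd14 was 75.6 and 66.9 times that of Tlr4 in colonic MHCII+ libraries, against 4.33 and 3.14 times in splenic ones. The TPM of Ly96 over Tlr4 varied less, at 2.49 and 1.44 in colonic MHCII+ libraries and 1.73 and 1.92 in splenic ones. Over all 10 libraries it lay between 1.44 and 3.60, with CD11c+ libraries at 3.60 and 3.16.

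Tlr5, the flagellin receptor, was at 12.3 and 14.1 CPM in colonic MHCII+ libraries, against 24.1 and 27.6 CPM in splenic ones. It was 1.96-fold lower in the colon (log2 fold change -0.97, SE 0.16, edgeR adjusted p = 0.00252). Cd180 was at 33.1 and 31.1 CPM in colonic MHCII+ libraries, against 229 and 233 CPM in splenic ones, and was 7.19-fold lower in the colon (log2 fold change -2.85, SE 0.10, edgeR adjusted p = 4.24e-06). Its partner Ly86 was lower as well, at 58.4 and 54.1 CPM in colonic MHCII+ libraries, against 144 and 161 CPM in splenic ones (log2 fold change -1.44, edgeR adjusted p = 6.13e-05). The TPM of Ly86 over Cd180 was 12.7 and 10.7 in colonic MHCII+ libraries and 4.39 and 4.66 in splenic ones, a ratio whose difference was not tested.

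Markers of other cells moved with these genes. The 9 B cell genes were all lower in the colon and summed to 89.6 and 98.2 CPM in colonic MHCII+ libraries, against 1695 and 1791 CPM in splenic ones, with none at 0 in any of the 4 libraries. Of the 8 neutrophil genes 7 were lower, with sums of 471.5 and 367 CPM in colonic MHCII+ libraries against 6254 and 8895 CPM in splenic ones. Of the 10 macrophage genes 6 were higher and 1 lower, with sums of 2617 and 2321 CPM in colonic MHCII+ libraries against 1263 and 1403 CPM in splenic ones. All 6 plasma cell genes and all 8 epithelial genes were higher in the colon. Dendritic cell lists were mostly lower: 4 of 5 general conventional, 7 of 8 type 1, 5 of 6 type 2 and all 6 plasmacytoid genes. In the type 1 and type 2 lists 1 gene each was higher. Among 7 monocyte genes 5 were lower and 1 higher, and among 8 T cell genes 6 were lower. Eosinophil and stromal or endothelial genes were mixed. Over all genes tested, 31.6% were called higher and 28.7% lower. The part of these cells in the levels of Tlr1, Tlr2, Tlr5, Cd14 and Cd180 was not tested.

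**Figure D2:**
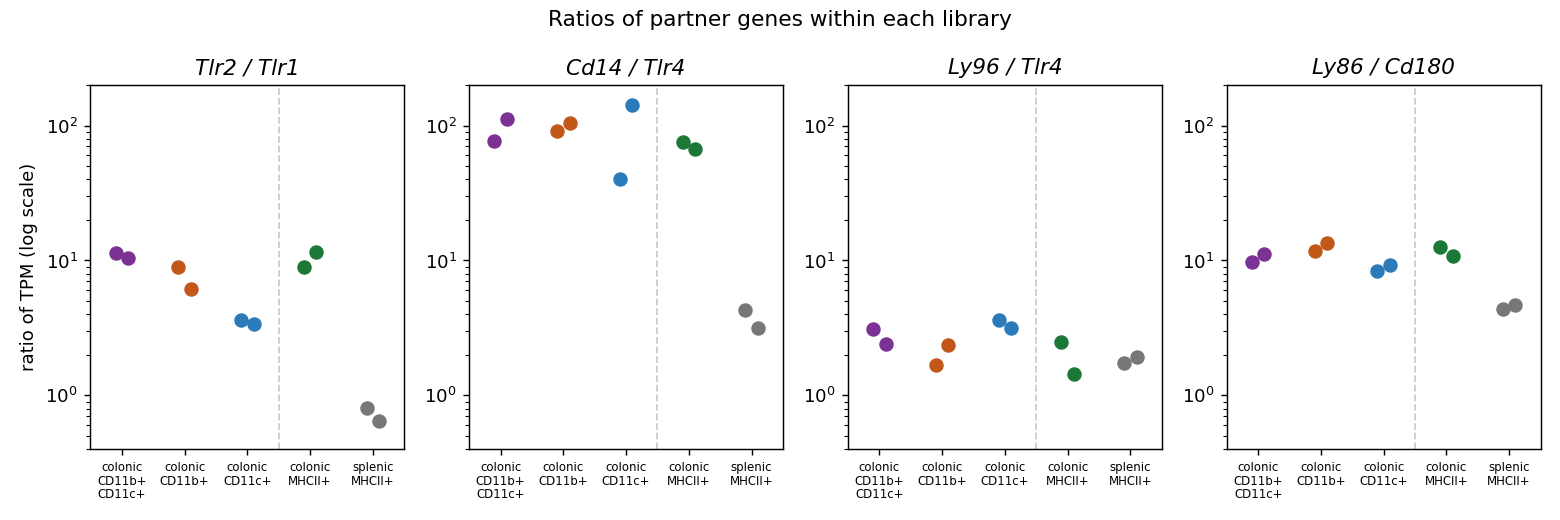
Ratio of the TPM of partner genes within each library (vertical axis, log scale) in the 5 sorted groups; points are the 2 libraries of a group. Tlr2 over Tlr1 is below 1 in both splenic MHCII+ libraries, at 0.811 and 0.641, and at least 3.41 elsewhere, while Ly96 over Tlr4 stays between 1.44 and 3.60.

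The second comparison set colonic CD11b+ cells against colonic CD11c+ cells. All 8 genes were higher in CD11b+ cells, where 52.0% of the 14225 genes tested were called (27.0% higher and 25.0% lower). Their median log2 fold change was 2.89, against -0.02 over all genes tested. In CD11b+CD11c+ cells, set against the same CD11c+ libraries, all 8 were higher too, where 43.0% of genes were called (20.4% higher and 22.5% lower), with a median of 2.70 against -0.09 over all genes. Because the CD11c+ libraries serve in both comparisons, these are given side by side and not as independent results.

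Tlr2 was at 560 and 647 CPM in CD11b+CD11c+ libraries and 522 and 469 CPM in CD11b+ libraries, against 16.5 and 50.6 CPM in CD11c+ libraries. The log2 fold change was 4.18 for CD11b+CD11c+ cells (SE 0.51, edgeR adjusted p = 0.00198) and 3.89 for CD11b+ cells (SE 0.51, adjusted p = 0.00187). Tlr1 was at 50.4 and 63.1 CPM in CD11b+CD11c+ libraries and 59.0 and 78.1 CPM in CD11b+ libraries, against 4.66 and 15.1 CPM in CD11c+ libraries. Its log2 fold changes were 2.55 (adjusted p = 0.00954) and 2.83 (adjusted p = 0.00553) for the same pair of comparisons. Tlr2 and Tlr1 were thus higher together here, unlike in the comparison of colon with spleen. Tlr6 was at 26.6 and 30.7 CPM in CD11b+CD11c+ libraries and 32.9 and 32.4 CPM in CD11b+ libraries, against 4.17 and 5.31 CPM in CD11c+ libraries, with log2 fold changes of 2.61 (SE 0.15, adjusted p = 3.16e-04) and 2.79 (SE 0.15, adjusted p = 2.14e-04). No CD11c+ library reached any library of the other subsets for these 3 genes. The levels in the CD11c+ libraries differed from each other for Tlr2 and Tlr1. Without CD11c+ library 1 the log2 fold change of Tlr2 was 3.57 for CD11b+CD11c+ and 3.28 for CD11b+ cells, and that of Tlr1 was 1.90 and 2.17. Without CD11c+ library 2 they were 5.19 and 4.90 for Tlr2, and 3.60 and 3.87 for Tlr1.

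Cd14 was at 1000.2 and 1475 CPM in CD11b+CD11c+ libraries and 1253 and 1494 CPM in CD11b+ libraries, against 64.4 and 291 CPM in CD11c+ libraries. The log2 fold change was 2.80 for CD11b+CD11c+ cells (SE 0.66, edgeR adjusted p = 0.0175) and 2.95 for CD11b+ cells (SE 0.67, adjusted p = 0.0124). The groups did not overlap, but the CD11c+ libraries lay further apart for Cd14 than for any other of the 8 genes. Without CD11c+ library 1 the log2 fold change was 2.08 and 2.23, and without CD11c+ library 2 it was 4.26 and 4.41. The call was lost for CD11b+CD11c+ cells without CD11b+CD11c+ library 2 (2.56, adjusted p = 0.0743) and for CD11b+ cells without CD11b+ library 2 (2.79, adjusted p = 0.0539).

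Tlr4 was at 33.6 and 34.2 CPM in CD11b+CD11c+ libraries and 35.8 and 37.2 CPM in CD11b+ libraries, against 4.17 and 5.25 CPM in CD11c+ libraries. The log2 fold change was 2.86 for CD11b+CD11c+ cells (SE 0.14, edgeR adjusted p = 2.32e-04) and 2.96 for CD11b+ cells (SE 0.14, adjusted p = 1.41e-04). Both values of every subset lay close together. Ly96 was at 12.95 and 10.1 CPM in CD11b+CD11c+ libraries and 8.23 and 11.1 CPM in CD11b+ libraries, against 1.74 and 2.23 CPM in CD11c+ libraries. Its log2 fold changes were 2.55 (SE 0.26, adjusted p = 0.00119) and 2.30 (SE 0.26, adjusted p = 0.00122). The 3 genes of the lipopolysaccharide receptor were all lowest in CD11c+ cells among the subsets.

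Tlr5 was at 28.5 and 38.0 CPM in CD11b+CD11c+ libraries and 26.7 and 33.2 CPM in CD11b+ libraries, against 1.93 and 4.71 CPM in CD11c+ libraries. Its log2 fold changes were 3.38 (SE 0.39, edgeR adjusted p = 0.00165) for CD11b+CD11c+ cells and 3.23 (SE 0.39, adjusted p = 0.00150) for CD11b+ cells. Without CD11c+ library 2 these were 4.09 and 3.94. Cd180 differed least: it was at 91.6 and 94.7 CPM in CD11b+CD11c+ libraries and 64.8 and 66.9 CPM in CD11b+ libraries, against 40.6 and 52.4 CPM in CD11c+ libraries. The log2 fold change was 1.01 (SE 0.13, adjusted p = 0.00257) for CD11b+CD11c+ cells and 0.51 (SE 0.13, adjusted p = 0.0207) for CD11b+ cells. The call for CD11b+ cells was lost without CD11c+ library 1 (0.32, adjusted p = 0.0649), without CD11b+ library 1 (0.52, adjusted p = 0.0820) and without CD11b+ library 2 (0.45, adjusted p = 0.108). With counts corrected for effective transcript length, neither Cd180 call remained (1.12, adjusted p = 0.107 for CD11b+CD11c+ cells, and 0.76, adjusted p = 0.220 for CD11b+ cells). Ly86, the partner of Cd180, was at 130 and 156 CPM in CD11b+CD11c+ libraries and 114 and 126 CPM in CD11b+ libraries, against 50.8 and 72.6 CPM in CD11c+ libraries.

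Markers of macrophages and of other cells moved with the receptors in the subsets. All 10 macrophage genes were higher in CD11b+CD11c+ and in CD11b+ cells than in CD11c+ cells, and they summed to 9017 and 11813 CPM in CD11b+CD11c+ libraries and 7838 and 8888 CPM in CD11b+ libraries, against 288 and 1326 CPM in CD11c+ libraries. CD11c+ library 2 was above CD11c+ library 1 in this sum and in all 8 genes. Markers of type 1 conventional dendritic cells (cDC1) ran the other way, at 1395 and 904 CPM in CD11b+CD11c+ libraries and 399 and 425 CPM in CD11b+ libraries, against 3992 and 4329 CPM in CD11c+ libraries. Of the 8 neutrophil genes, 5 were higher in CD11b+CD11c+ cells and 8 in CD11b+ cells, with sums of 128 and 161 CPM in CD11b+CD11c+ libraries and 619 and 563 CPM in CD11b+ libraries, against 3.37 and 14.8 CPM in CD11c+ libraries. No macrophage or cDC1 gene was at 0 in any of these libraries, whereas neutrophil genes at 0 numbered 1 in each CD11b+CD11c+ library, 0 in each CD11b+ library, and 4 and 3 in CD11c+ libraries 1 and 2. Other lists moved as well. All 8 T cell genes were lower in both subsets, with sums of 36.4 and 10.7 CPM in CD11b+CD11c+ libraries and 20.8 and 19.9 CPM in CD11b+ libraries, against 674 and 231 CPM in CD11c+ libraries. Of the 6 plasma cell genes 5 were lower and 1 higher in both. Of the 6 type 2 conventional dendritic cell genes 4 were higher in CD11b+CD11c+ and 3 in CD11b+ cells, and none lower. Of the 5 eosinophil genes tested, 3 were higher and 1 lower in CD11b+CD11c+ cells, and 4 were higher in CD11b+ cells. Of 7 monocyte genes, 3 were higher and 3 lower in CD11b+CD11c+ cells, and 5 higher and 1 lower in CD11b+ cells. Of 5 general conventional dendritic cell genes, 4 were lower in both, and 1 was higher in CD11b+CD11c+ cells. Of 7 stromal or endothelial genes, 4 were lower in CD11b+CD11c+ and 5 higher in CD11b+ cells. Of 8 epithelial genes, 1 was higher in CD11b+CD11c+ and 5 in CD11b+ cells. The shares over all genes tested were 20.4% higher and 22.5% lower in CD11b+CD11c+ cells, and 27.0% higher and 25.0% lower in CD11b+ cells. The part of these cell types in the levels of the 8 genes was not tested.

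**Figure D3:**
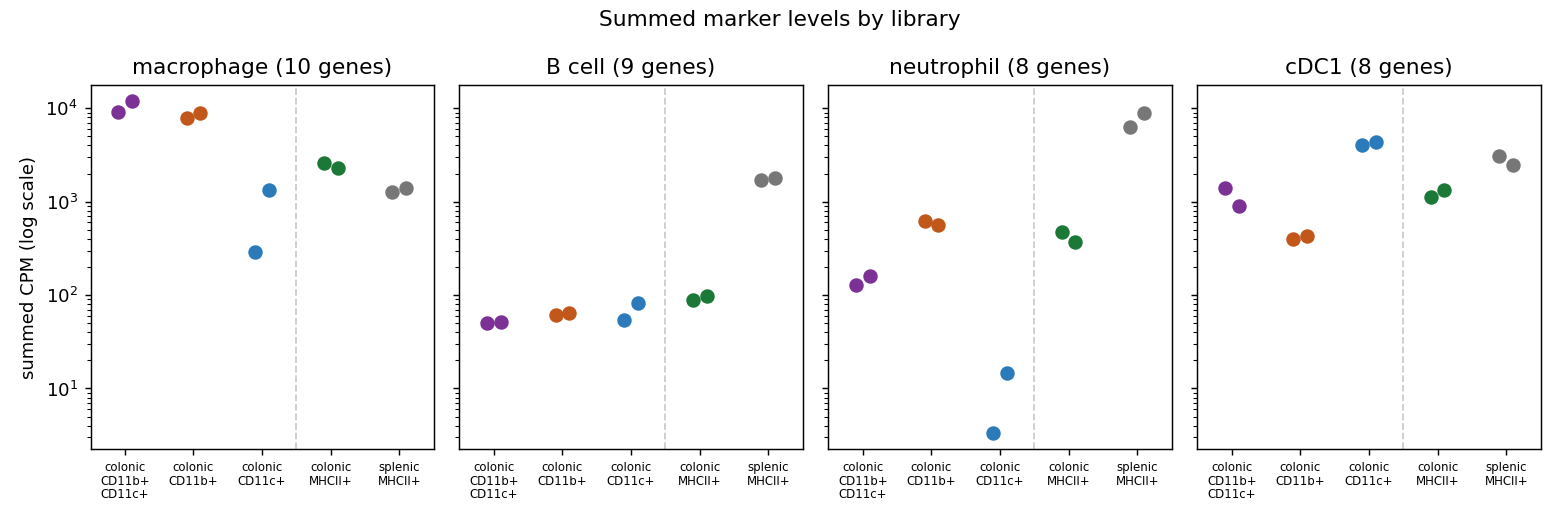
Summed CPM (vertical axis, log scale, the same in every panel) of macrophage, B cell, neutrophil and type 1 conventional dendritic cell (cDC1) marker genes; points are the 2 libraries of a group. CD11c+ libraries hold the lowest macrophage sums of the subsets, at 288 and 1326 CPM, and splenic MHCII+ libraries the highest B cell sums, at 1695 and 1791 CPM.

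CD11b+CD11c+ cells were then set against CD11b+ cells directly. None of the 8 genes passed the test, where 9.63% of the 14225 genes tested were called (3.79% higher and 5.84% lower), and the median log2 fold change was 0.02, against 0.01 over all genes. Of the 8 genes 1, Cd180, had an unadjusted p under 0.05 in edgeR, and DESeq2 called that gene and no other. Cd180 was at 91.6 and 94.7 CPM in CD11b+CD11c+ libraries, against 64.8 and 66.9 CPM in CD11b+ libraries. The libraries did not overlap, with a log2 fold change of 0.50, a 95% interval of 0.18 to 0.82, an unadjusted p of 0.00859 and an adjusted p of 0.0704. It was called by DESeq2 (adjusted p = 0.0151), by edgeR without the count filter (0.0171), with all 10 libraries in the same model (0.0145), without CD11c+ library 1 (0.0185) and without CD11c+ library 2 (0.0165).

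The intervals of the other genes reflect only the spread of these libraries, which may be technical, and do not bound how far the cell subsets differ. They were narrow for Tlr4 (log2 fold change -0.10, 95% interval -0.40 to 0.19) and Tlr6 (-0.19, -0.53 to 0.15). They were wider for Ly96 (0.25, -0.32 to 0.82), Tlr5 (0.15, -0.67 to 0.97) and Tlr2 (0.29, -0.80 to 1.38). They were widest for Tlr1 (-0.27, -1.40 to 0.85) and Cd14 (-0.15, -1.65 to 1.35). Tlr2 libraries did not overlap, at 560 and 647 CPM in CD11b+CD11c+ cells against 522 and 469 CPM in CD11b+ cells. The test shares its spread with CD11c+ cells, whose libraries differed most for Tlr1, Tlr2 and Cd14. Cell markers also differed between these subsets. All 5 general conventional dendritic cell genes, 6 of 8 cDC1 genes and 2 of 6 type 2 genes were higher in CD11b+CD11c+ cells. Lower there were 6 of 8 neutrophil, 4 of 5 eosinophil, 5 of 7 monocyte and 4 of 7 stromal or endothelial genes. None of the 10 macrophage genes was called. Over all genes tested, 3.79% were called higher and 5.84% lower. The part of these cells was not tested.

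**Figure D4:**
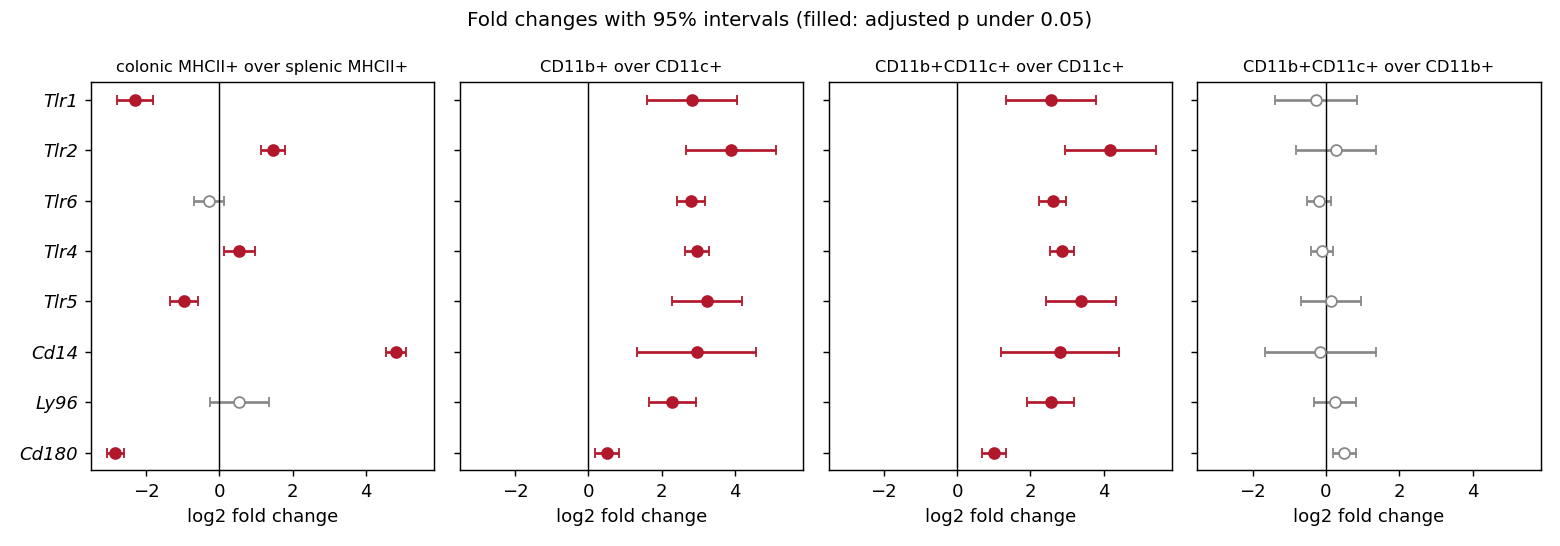
Log2 fold change with its 95% interval (horizontal axis) of the 8 genes in the 4 comparisons; filled red points had an edgeR adjusted p under 0.05 over all genes tested. All 8 are filled and right of 0 against CD11c+ cells, none is filled between CD11b+CD11c+ and CD11b+ cells, and colonic MHCII+ over splenic MHCII+ cells runs from -2.85 for Cd180 to 4.81 for Cd14.

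Other genes of the pathway were taken from lists of 56 genes outside the endosomal receptors: partners and chaperones, TIR adaptors, IRAK, TRAF and TAK1 genes, NF-kB genes, brakes, and genes that Toll-like receptor signals are known to induce. These lists too were chosen with earlier results of these data known. In colonic MHCII+ over splenic MHCII+ cells, 27 of the 56 were higher and 14 lower, where 31.6% of all genes tested were called higher and 28.7% lower. Of 14 induced genes, 11 were higher and none lower. Cxcl3, a neutrophil chemokine, was at 22.0 and 17.4 CPM in colonic MHCII+ libraries and had no count in either splenic library, and Ifnb1, which encodes interferon beta, was at 2.17 and 2.98 CPM in colonic MHCII+ libraries, against 0 and 0.0302 CPM in splenic ones. No fold is given for these because the splenic level is at or near 0.

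Upstream of the induced genes the directions were mixed, as they were over all genes tested, of which 31.6% were called higher and 28.7% lower. Of 7 partners and chaperones 2 were higher and 4 lower: Hsp90b1, which encodes gp96, the chaperone that most Toll-like receptors need to fold, was at 2787 and 2833 CPM in colonic MHCII+ libraries, against 897 and 860 CPM in splenic ones (log2 fold change 1.68, edgeR adjusted p = 3.32e-05). Cd36, a scavenger receptor that assists TLR2, was higher too (0.76, adjusted p = 0.00427), a call lost with counts corrected for effective length (0.74, adjusted p = 0.0651) and in limma on log2(TPM + 1) (0.51, adjusted p = 0.197). Lbp, which encodes lipopolysaccharide binding protein, was lower at 1.73 and 1.29 CPM in colonic MHCII+ libraries, against 10.3 and 10.3 CPM in splenic ones (-2.74, adjusted p = 3.33e-04). Among 5 TIR adaptors, Ticam1 (TRIF) was higher (0.68, adjusted p = 0.00348) and its bridge to TLR4, Ticam2 (TRAM), was lower (-0.79, adjusted p = 0.00334). The Ticam1 call was lost in limma on log2(TPM + 1) (0.48, adjusted p = 0.0626). The call for Myd88, the adaptor of all 5 surface receptors (0.29, adjusted p = 0.0474), was lost without any of the 4 libraries (0.30 and 0.24 without colonic libraries 1 and 2, adjusted p = 0.0703 and 0.134; 0.19 and 0.38 without splenic libraries 1 and 2, adjusted p = 0.310 and 0.0634).

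Of 10 IRAK, TRAF and TAK1 genes, 2 were higher in colonic MHCII+ cells, led by the kinase Irak2 (log2 fold change 1.00, edgeR adjusted p = 1.37e-04), and 4 lower, led by the kinase Irak4 (-1.15, adjusted p = 1.56e-04) and Tab1, a TAK1 partner (-1.04, adjusted p = 0.00239). Of 8 NF-kB genes 4 were higher, led by the subunits Nfkb2 (1.23, adjusted p = 9.29e-05) and Rela (1.16, adjusted p = 1.38e-04), and 3 lower, led by Ikbkg (NEMO; -0.77, adjusted p = 0.00237) and Chuk (IKK alpha; -0.42, adjusted p = 0.00833). Of 12 brakes 6 were higher and 2 lower. Il1rl1 (ST2) was higher by 2.76 on the log2 scale (adjusted p = 1.60e-04) and Tnfaip3 (A20) by 1.59 (adjusted p = 0.00714). The Tnfaip3 value became 2.27 without splenic library 1, and the call was lost in limma on log2(TPM + 1) (1.41, adjusted p = 0.0633). Rnf216 was lower (-0.80, adjusted p = 7.54e-04). For all these lists, the shares over all genes tested were 31.6% called higher and 28.7% called lower.

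Against CD11c+ cells, 34 of the 54 pathway genes tested were higher and 5 lower in CD11b+CD11c+ cells, and 33 were higher and 4 lower in CD11b+ cells. Over all genes tested, 20.4% were called higher and 22.5% lower in CD11b+CD11c+ cells, and 27.0% higher and 25.0% lower in CD11b+ cells. Ticam2 was at 23.1 and 28.5 CPM in CD11b+CD11c+ libraries and 21.1 and 21.9 CPM in CD11b+ libraries, against 1.59 and 2.84 CPM in CD11c+ libraries. Its log2 fold changes of 3.58 (edgeR adjusted p = 5.75e-04) and 3.32 (adjusted p = 4.75e-04) lay within the range of the 8 receptor genes. Irak3 (IRAK-M), a brake of macrophages, was at 25.4 and 24.3 CPM in CD11b+CD11c+ libraries and 65.4 and 49.3 CPM in CD11b+ libraries, against 3.18 and 4.58 CPM in CD11c+ libraries (2.70, adjusted p = 6.80e-04, and 3.90, adjusted p = 2.16e-04). Il1rl1 was higher in both subsets (2.47, adjusted p = 4.05e-04, and 2.21, adjusted p = 3.63e-04). Genes lower in both included the kinase Chuk (-0.88, adjusted p = 0.00117, and -1.08, adjusted p = 5.03e-04) and the brake Sigirr (-1.29, adjusted p = 0.0144, and -1.94, adjusted p = 0.00322). The first Sigirr call was lost without CD11b+CD11c+ library 2 (-0.97, adjusted p = 0.0901).

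Of 13 induced genes tested, 11 were higher than in CD11c+ cells in CD11b+CD11c+ cells and none lower, where 20.4% and 22.5% of all genes were called. In CD11b+ cells 11 were higher, where 27.0% of all genes were, and 1 was lower, where 25.0% were. The lower one, Il12b, which encodes a chain shared by interleukins 12 and 23, was at 5.15 and 5.31 CPM in CD11b+ libraries, against 7.05 and 14.7 CPM in CD11c+ libraries (log2 fold change -1.04, edgeR adjusted p = 0.0461). That call was lost under 10 of the alternatives, among them RLE scaling (-1.01, adjusted p = 0.0509). The neutrophil chemokine Cxcl3 was at 25.2 and 33.1 CPM in CD11b+CD11c+ libraries and 33.8 and 45.9 CPM in CD11b+ libraries, against 0.379 and 4.46 CPM in CD11c+ libraries (log2 fold changes 3.73, edgeR adjusted p = 0.0124, and 4.19, adjusted p = 0.00688). As for Cd14, the CD11c+ libraries lay far apart: without library 1 of that subset the Cxcl3 values were 2.69 and 3.15, and without library 2 they were 6.23 and 6.68. The call for CD11b+CD11c+ cells was lost without CD11b+CD11c+ library 2 (3.57, adjusted p = 0.0564).

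Between CD11b+CD11c+ and CD11b+ cells, 2 of the 54 pathway genes were higher and 1 lower, where 3.79% of all genes tested were called higher and 5.84% lower. Cd36 was at 674 and 789 CPM in CD11b+CD11c+ libraries, against 420 and 409 CPM in CD11b+ libraries (log2 fold change 0.82, edgeR adjusted p = 0.0105), a call lost without CD11b+ library 1 (0.84, adjusted p = 0.10) and library 2 (0.90, adjusted p = 0.0677). Il6 was higher (0.66, adjusted p = 0.0202) and Irak3 lower (-1.21, adjusted p = 0.0152). The Il6 call was lost without CD11b+CD11c+ library 1 (0.72, adjusted p = 0.0852) or 2 (0.69, adjusted p = 0.0690) and without CD11b+ library 1 (0.69, adjusted p = 0.143) or 2 (0.73, adjusted p = 0.0957). The Irak3 call was lost without CD11b+CD11c+ library 1 (-1.24, adjusted p = 0.10) or 2 (-1.09, adjusted p = 0.0890) and without CD11b+ library 1 (-0.99, adjusted p = 0.120).

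**Figure D5:**
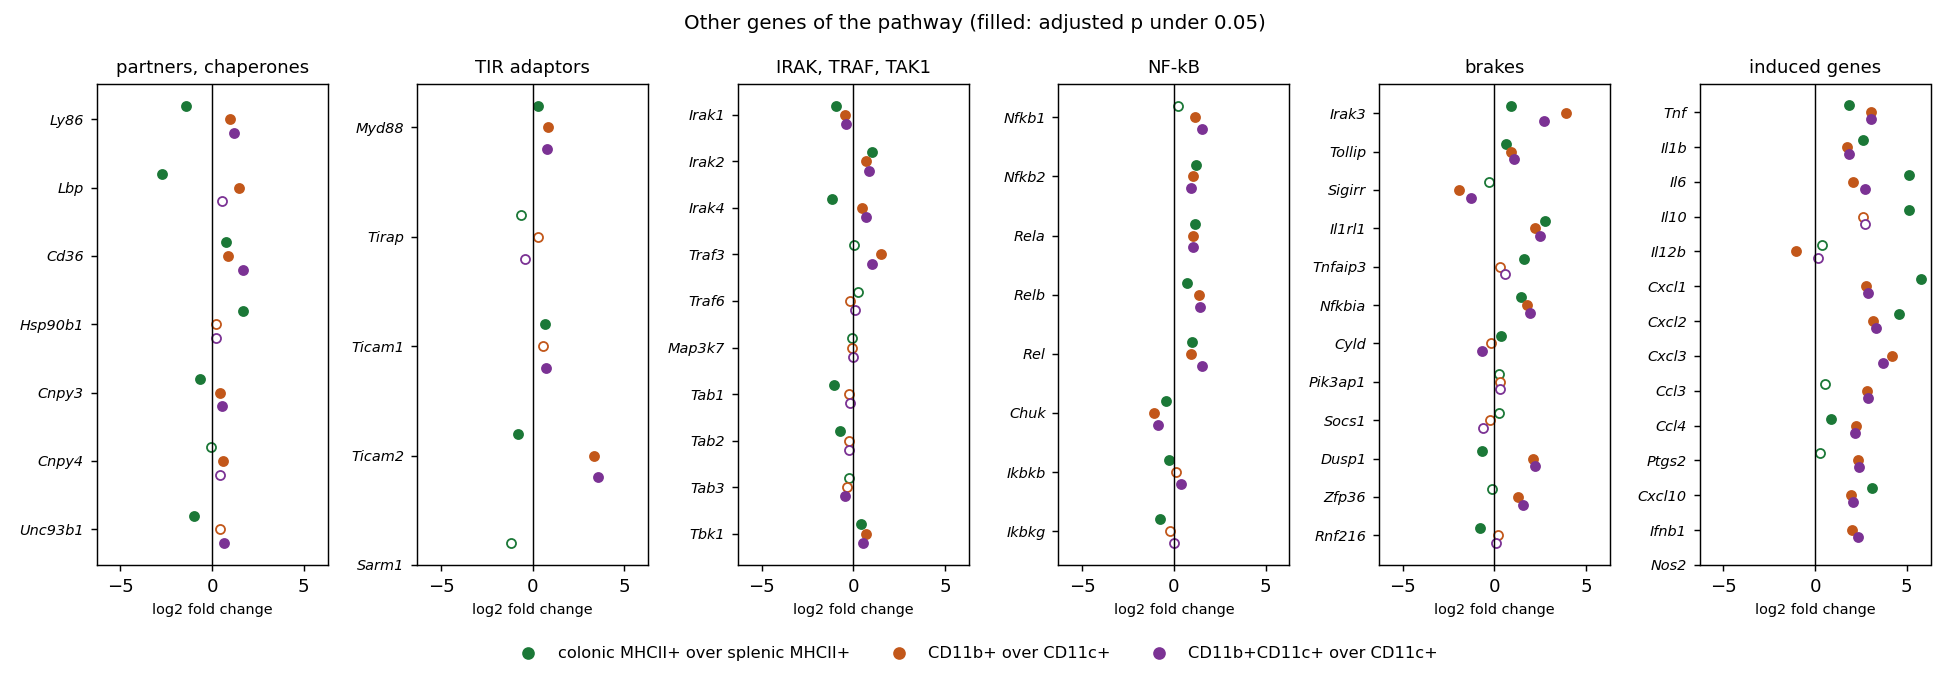
Log2 fold change (horizontal axis) of 56 other genes of the Toll-like receptor pathway by list, in colonic MHCII+ over splenic MHCII+ cells (green), CD11b+ over CD11c+ cells (orange) and CD11b+CD11c+ over CD11c+ cells (purple); filled points had an edgeR adjusted p under 0.05. Cxcl3, Ifnb1 and Nos2 have no green point because their splenic level was at or near 0. Induced genes lie mostly right of 0, with 11 called higher in each of the 3 comparisons.

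The 7 endosomal Toll-like receptors sense nucleic acids or parasite profilin. In colonic MHCII+ over splenic MHCII+ cells none was higher and 6 were lower, from -1.13 for Tlr13 to -3.23 for Tlr11 on the log2 scale, against 3 higher and 3 lower among the 8 surface genes. Over all genes tested in that comparison, 31.6% were called higher and 28.7% lower. Against CD11c+ cells, 4 of the endosomal receptors were higher and 2 lower in both CD11b+CD11c+ and CD11b+ cells. The shares over all genes were 20.4% higher and 22.5% lower in CD11b+CD11c+ cells, and 27.0% higher and 25.0% lower in CD11b+ cells. Tlr11 was at 7.53 and 4.90 CPM in CD11b+CD11c+ libraries and 1.15 and 1.03 CPM in CD11b+ libraries, against 50.2 and 46.3 CPM in CD11c+ libraries, and Tlr3 was likewise highest in CD11c+ cells. None of the 8 surface genes was lower than in CD11c+ cells. The difference between the surface and endosomal lists was not tested.

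The likeness of the 8 profiles was described by Pearson's r of log2(TPM + 1) over the 10 libraries, which share groups and depth, so that r is a description. Here TPM was summed over all coding transcripts of a gene, short ones included. Short transcripts held 31.9 to 73.7% of that TPM for Cd180 and 28.9 to 67.3% for Tlr6, so r is less certain for these genes. Tlr2, Tlr4 and Ly96 ran closest (0.952 for Tlr2 and Ly96, 0.949 for Tlr2 and Tlr4, 0.936 for Tlr4 and Ly96). Tlr1 ran with Tlr5 (0.899) and Cd180 (0.856), while Cd14 ran against Cd180 (-0.37) and was unrelated to Tlr1 (-0.11). Of 7548 genes with a mean of at least 10 TPM, the most like Cd14 were Cxcl3 (0.996), Cxcl10 (0.995) and Il1b (0.993). The most like Tlr2 were Blnk (0.995), App (0.992) and Arl5c (0.992), and the most like Tlr4 were 2310022A10Rik (0.989), Cebpb (0.988) and Ccl9 (0.987). For Tlr5 they were Lyz2 (0.993), Rnf130 (0.989) and Ptpro (0.988), and for Tlr1 Oasl2 (0.985), Rasa4 (0.983) and Ms4a6c (0.981). Ly96 was nearest to Tfe3 (0.985), Adam17 (0.976) and Fabp5 (0.975). Tlr6 and Cd180 had weaker nearest genes: Retreg2 (0.968), Ell (0.962) and Ppp3ca (0.961) for Tlr6, and Rassf2 (0.964), Vav2 (0.962) and Elmo1 (0.953) for Cd180.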

How the data were processed

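Sorted cells gave 10 mRNA libraries. Per the submitters' processing notes, reads were quantified with kallisto 0.44.0 on mm10; sleuth is also named, and none of its output was used. The deposited estimated counts are expected reads per transcript, and the deposited TPM values are scaled for effective length, per the file headers. Of the transcript lengths 88.9% are multiples of 3, so coding sequences were quantified. The sources used here do not give the strand setting or the index release.

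Transcripts (65747 of 66760) were matched to GENCODE M21; the others held 0.532 to 0.912% of the counts. Counts were summed per gene and rounded. The MHCII+ set (15076 genes tested) and the subset set (14225) were fitted separately with edgeR 4.0.16 in R 4.3.3: filterByExpr, TMM, quasi-likelihood F test, Benjamini-Hochberg adjustment over all genes tested, called under 0.05. All 8 genes passed the filter. Every adjusted p is from edgeR unless another tool is named. SE and 95% intervals derive from F. The script was tested on simulated data. Alternatives used DESeq2 1.42.0, limma 3.58.1, other scalings and filters, and single libraries left out. Up to 2 called genes per pathway list and direction, by size, and the 3 genes most like each member were selected for naming, not all of which are named. The genes and lists were chosen with earlier results of these data known. Splenic titles share a replicate number, so those libraries were numbered in accession order.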

Additional observations from a re-analysis of the deposited data

How the results depend on the processing

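Over all alternatives, 429 of 456 values of the 8 genes kept their direction and side of the threshold; 18 lost a call, 5 gained one (all Cd180 in CD11b+CD11c+ over CD11b+ cells) and 4 changed sign. The sign changes were uncalled values of CD11b+CD11c+ over CD11b+ cells: without CD11b+ replicate 2, Tlr1 was 0.044, Tlr4 0.023 and Cd14 0.083, and without CD11b+CD11c+ replicate 1, Cd14 was 0.11. Leaving out each replicate in turn, Tlr1 ran from -0.46 to 0.044, Tlr4 from -0.13 to 0.023 and Cd14 from -0.38 to 0.11. For that comparison the number of members called, 0 in the main analysis, was 1 under DESeq2, without a count filter, with all 10 libraries in 1 fit and without either CD11c+ replicate (0 to 1 over the replicates left out). Of 966 values of named pathway genes 857 kept direction and call and 109 lost the call. Genes called in all numbered 1370 for CD11b+CD11c+ over CD11b+ cells, with 831 under the effective length offset, 746 and 640 under limma on log2(TPM + 1) and log2(TPM + 0.1), 687 under limma without a TPM filter, 2029 under DESeq2, and 226 to 1748 without single replicates. They numbered 6110 for CD11b+CD11c+ over CD11c+ cells, with 3482 under limma without a TPM filter and 3190 to 5707 without single replicates, and 7392 for CD11b+ over CD11c+ cells, with 4372 to 7089 without single replicates. The share of calls that were higher was 39.3% for CD11b+CD11c+ over CD11b+ cells and became 50.02% under DESeq2, 55.8% without a count filter, 60.5% with all 10 libraries, and 28.6% and 23.0% under limma on log2(TPM + 1) with and without a TPM filter. Without that filter it was 58.3% instead of 47.6% for CD11b+CD11c+ and 62.3% instead of 52.0% for CD11b+ over CD11c+ cells, and it was 42.0% and 42.4% under limma with the larger and the smaller pseudocount instead of 52.5% for colonic MHCII+ over splenic MHCII+ cells. Over CD11c+ cells, limma on log2(TPM + 1) gave Tlr4 2.03 for CD11b+CD11c+ and 2.16 for CD11b+ cells, and Tlr5 2.20 and 2.12. On log2(TPM + 0.1), limma gave Tlr4 2.755 and 2.908, and Tlr5 3.245 and 3.154, in the same order. In the MHCII+ set the median log2 fold change of all genes was -0.19 and -0.22 under limma with these pseudocounts and 0.02 in edgeR; Tlr4 at 0.41 and 0.49 in limma lay above it. The cause of these shifts was not tested.

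Same-numbered subset libraries deviated together for CD11b+CD11c+ with CD11c+ cells (correlation 0.26) but not for CD11b+ with CD11b+CD11c+ (-0.01) or CD11c+ cells (-0.06), and the numbers were not taken as pairs. With a replicate block, the genes called numbered 7316, 6075 and 1427 for CD11b+ over CD11c+, CD11b+CD11c+ over CD11c+ and CD11b+CD11c+ over CD11b+ cells, and 8, 8 and 0 of the members were called. No paired analysis was possible for colonic against splenic MHCII+ cells because both splenic titles carry the same number.

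With 2 libraries a group, precision in the MHCII+ set is limited most for Ly96, whose counts are the lowest. Against CD11c+ cells it is limited most for Cd14, Tlr1, Tlr2 and Tlr5, for which the CD11c+ libraries differ. Tlr1 and Tlr6 share coding sequence.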
